A study of Mus musculus with 3 samples.

Results

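Notch1, Notch2, Notch3, Dll1, Dll3, Jag1, Jag2, Hes1, Numb and Numbl were taken by gene symbol as 10 genes of the Notch pathway, out of 21028 protein-coding mouse genes with an annotated 3′UTR (GENCODE mouse M21, GRCm38). For each gene the Argonaute 2 (Ago2) binding peaks on the strand of the gene were counted in every library and placed on the transcript parts. Seed matches, the short sites that pair with the start of a miRNA, were then read under the peaks. The peaks came from HITS-CLIP, in which Ago2 is crosslinked to the RNA it touches by ultraviolet light, immunoprecipitated and sequenced with that RNA. All 3 libraries came from untreated (basal) cells of the mouse neuroblastoma line N2A and form 1 group, so there was no contrast between conditions. The cells were crosslinked at 400, then at 200 and again at 200 mJ/cm2, and the complexes were precipitated with the antibody 2D4 against Ago2. No source states that the replicates were separate cultures, so their spread may be technical.

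Notch receptors are cut after they bind a Delta or Jagged ligand on a neighbouring cell, and the released intracellular part joins the DNA-binding protein Rbpj and switches on target genes such as Hes1. In the developing nervous system the pathway keeps progenitors from becoming neurons, and Numb and Numbl, adaptor proteins of endocytosis, restrain the receptors. Ago2 carries a miRNA, and bases 2 to 8 of the miRNA (the seed) pair with matching sites, mostly in 3′UTRs. The miR-34 family, to which miR-449a belongs by its seed, is known for targeting Notch receptors and ligands.

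The mature sequences below are those of the miRNAs of the example sites listed next, from RefSeq (GRCm38.p6), with the seed in capitals. The first 3 share 1 seed, and their match in DNA letters is CACTGCC. The match of miR-21a-5p, the miRNA at the centre of the study, is ATAAGCT, and that of miR-9-5p, a neural miRNA, is ACCAAAG.
miR-34a-5p: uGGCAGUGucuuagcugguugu
miR-34b-5p: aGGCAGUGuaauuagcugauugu
miR-449a-5p: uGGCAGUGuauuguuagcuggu
miR-21a-5p: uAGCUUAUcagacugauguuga
miR-9-5p: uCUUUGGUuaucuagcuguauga

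The sites below are examples from receptors, ligands and the adaptor Numbl, not a full list. Other matches to the same miRNAs are not shown, among them the 3 miR-34 family copies in Notch1. Each site below is given on the strand of the transcript in GRCm38, with the match in capitals and 8 nt on each side. The first was the only listed seed match in the 10 genes that peaks of all 3 libraries covered. The next 2 lay under peaks in replicates 2 and 3, those in Jag1 and Numbl in replicate 3 only, and the site in Dll1 under none.
Notch2, miR-34 family, chr3:98149597-98149619, plus strand: gaagacaaCACTGCCagtcatac
Notch2, miR-21a-5p, chr3:98148354-98148376, plus strand: tccaagaaATAAGCTaacttgct
Notch2, miR-9-5p, chr3:98150009-98150031, plus strand: agaaatgaACCAAAGgtgttcag
Jag1, miR-34 family, chr2:137081663-137081685, minus strand: gtagagtaCACTGCCtgccttaa
Jag1, miR-21a-5p, chr2:137081731-137081753, minus strand: gtattctcATAAGCTagttgaat
Numbl, miR-34 family, chr7:27281840-27281862, plus strand: gctgtgttCACTGCCaatgctgt
Dll1, miR-34 family, chr17:15367851-15367873, minus strand: gcgcccgaCACTGCCagcctagg

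The libraries differed in the number and width of their peaks. Replicates 1, 2 and 3 held 711377, 498071 and 829936 peaks, and read depth is not known from the peak table. The median width was 83, 84 and 85 nt, and peaks of at most 85 nt made up 71.5%, 61.4% and 52.8% of the total. A same-strand 3′UTR peak was found for 34.8%, 44.7% and 48.4% of all genes in replicates 1, 2 and 3, so replicate 1 had many peaks but the fewest genes with one in the 3′UTR. Of the markers of sympathoadrenal and neuroblastoma cells, 7 of 11 had 3′UTR peaks in each of the 3 libraries, among them Hand2 and Gata3, while Th was without a 3′UTR peak. Of the neuronal markers this held for 4 of 8. It held for 2 of 8 glial markers, 1 of 6 myeloid markers (Ptprc) and none of 6 endothelial markers, of which 5 had no 3′UTR peak in any library. Over all genes the share was 23.9%, close to that of the glial and myeloid markers.

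In at least 1 library Ago2 peaks touched the 3′UTRs of 8 of the 10 genes, beside 61.9% of all genes, and in all 3 libraries those of Notch2 and Numb, 2 of 10 genes beside 23.9% of all genes. Another 5 genes (Notch1, Notch3, Jag1, Jag2 and Numbl) had 3′UTR peaks in 2 libraries, which makes 7 of 10 in at least 2, beside 42.1% of all genes. Dll3 had a peak in 1 library, overlapping its 3′UTR by 10 nt, and Dll1 and Hes1 had none. On the opposite strand, taken as background, none of the 10 genes had 3′UTR peaks in every library, beside 2.63% of all genes. A common region, meaning at least 8 nt of 3′UTR covered on the gene's strand in all 3 libraries, was present in Notch2 and Numb, again 2 of 10 beside 14.3% of all genes. When 2 libraries sufficed, 6 of the 10 genes had such a region, beside 34.6%. An exact sign-flip test over 3 libraries cannot give a two-sided p below 0.25, so no test was run and all counts are descriptions. The libraries hold no measure of RNA level, so a scarce transcript and a transcript with little Ago2 on it cannot be told apart.

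These counts are also given by 3′UTR length. The share of genes with 3′UTR peaks in every library was 10.8%, 20.8%, 33.7% and 51% in the classes 2, 3, 4 and 5 when all genes were put in 5 classes of rising 3′UTR length. Notch2, with 2917 nt, was in class 5. Notch1 (1628 nt), Jag1 (1568 nt) and Numb (1405 nt) were in class 4, and Jag2 (1070 nt), Notch3 (1000 nt) and Numbl (732 nt) in class 3. Dll1 (676 nt), Dll3 (368 nt) and Hes1 (368 nt) were in class 2. Few or no 3′UTR peaks were found in these 3 genes, and few in Notch1 and Notch3. The part of length in this was not tested. The median 3′UTR of the 10 genes was 1035 nt, against 960.5 nt for all genes.

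The covered share of the 3′UTR, the percent of its bases under same-strand peaks averaged over the libraries, had a median of 18.4% in the 10 genes and of 3.32% in all genes. Within its own length class, the covered share of Notch2 was above that of 94.3% of genes and that of Jag1 above 90.3%. The corresponding figures were 79.4% for Numbl, 75.4% for Jag2, 70.9% for Numb, 68% for Notch1, 55% for Notch3, 48.9% for Dll3 and 0% for Dll1 and Hes1. The order of the means ran from Notch2 and Jag1 through Numbl, Jag2, Numb and Notch1 to Notch3 and Dll3. Neighbours in this order differed by less than the SD over libraries of at least 1 of them.

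**Figure D1:**
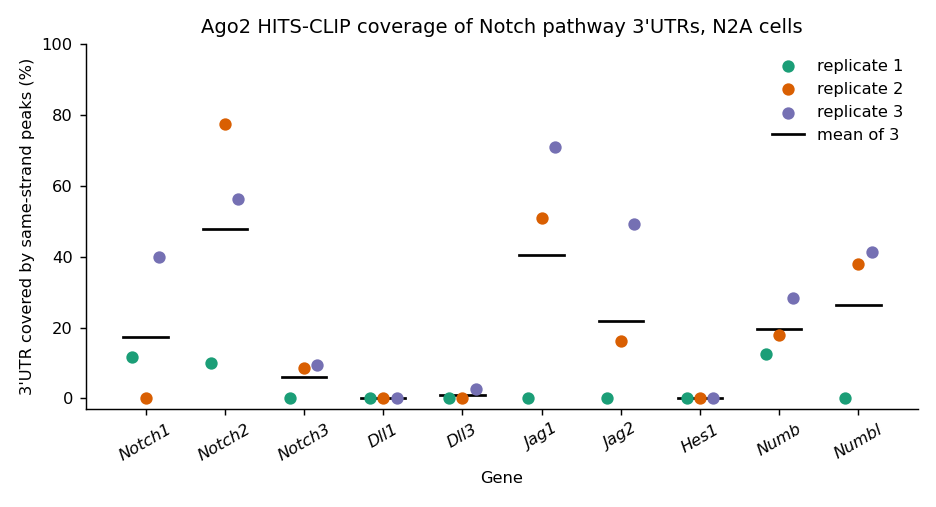
Percent of each gene's 3′UTR under same-strand Ago2 peaks (vertical axis) for the 10 genes (horizontal axis), with 1 point per library and a bar at the mean of 3. Replicate 1 was the lowest or tied for the lowest in each gene but Notch1, where replicate 2 was at 0.

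**Figure D2:**
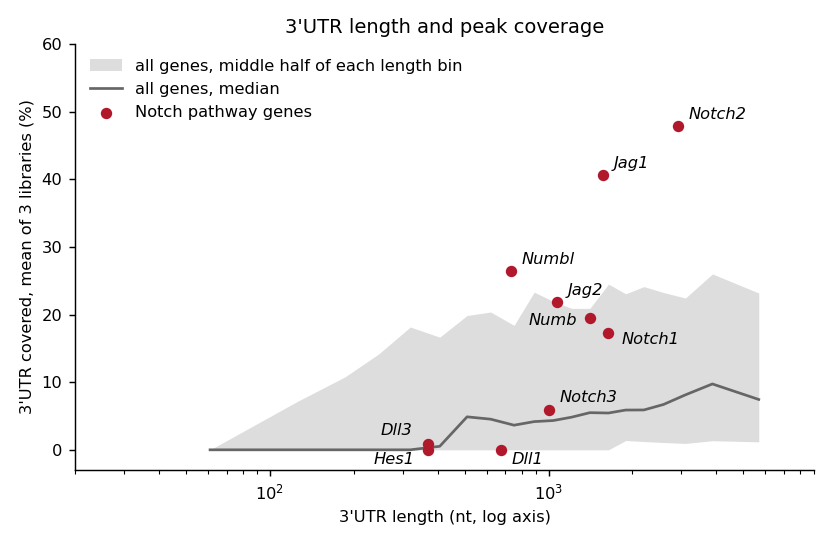
Length of the 3′UTR in nt (horizontal, log axis) against the percent covered, as the mean of 3 libraries (vertical axis). Points are the 10 genes, the line is the median of all genes in bins of length and the shade holds the middle 50% of genes in each bin. Notch2, at 47.9%, and Jag1, at 40.6%, lay far above the shade, and Dll1, Dll3 and Hes1 lay at or near 0.

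Among the receptors, Notch2 carried most of the peaks. Its 3′UTR (chr3:98147445-98150361, plus strand, in the last of 34 exons) held 3, 27 and 19 peaks in replicates 1, 2 and 3 (16.3 ± 12.2, SD, n = 3). Peaks covered 9.87%, 77.4% and 56.4% of it (47.9% ± 34.5, SD, n = 3). Replicate 1 was thus far below the other 2 libraries, which shared 13 regions of the 3′UTR. Together, regions covered in at least 2 libraries took up 1442 of its 2917 nt. On the opposite strand there were 2 peaks, both in replicate 1.

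The Notch2 3′UTR had 3 common regions. The first (chr3:98148625-98148675, 51 nt) began 1181 nt and the second (chr3:98149121-98149225, 105 nt) 1677 nt into the 3′UTR, and neither held a seed match of the listed miRNAs. The third (chr3:98149559-98149619, 61 nt, from nt 2115) held the match of the miR-34 family. The first and second each held a K box, TGTGAT, a motif known from the 3′UTRs of Notch target genes in flies. Both K boxes lay outside the central part of the replicate 1 peak, and the region left at the second after trimming of the padding (chr3:98149151-98149195, 45 nt) did not hold its K box. No common region was left at the first. The 3 regions were 49.0%, 64.8% and 54.1% A and T, beside 54.4% for the whole Notch2 3′UTR and a median of 64.8% for all 7839 common regions. These are the 2 K boxes in capitals.
Notch2, K box, chr3:98148636-98148657, plus strand: ccacagcgTGTGATctgagaga
Notch2, K box, chr3:98149128-98149149, plus strand: tttattccTGTGATagttaaaa

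Notch2 also had regions of the coding sequence covered in all libraries, and was alone in this among the 10 genes. One region of 99 nt lay in exon 11 (chr3:98104342-98104440) and another of 82 nt in exon 12 (chr3:98107038-98107119). In replicate 1 both lay under the same single peak of 7199 nt (chr3:98102573-98109771), whose midpoint was in an intron. The remaining 25 nt were in exon 34, before the stop codon (chr3:98147135-98147159), and lay outside the central part of the replicate 1 peak there. Its coding sequence held 5, 20 and 19 peaks in replicates 1, 2 and 3, with 2, 0 and 0 on the opposite strand. Its introns held 31, 31 and 96, with 13, 9 and 10 on the opposite strand. Of the intronic peaks, 8 lay within Gm42819, a transcript model annotated on the same strand, and cannot be assigned to Notch2 alone. Another such model, Gm42820, overlapped 2 peaks of the gene.

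Notch1, the receptor most studied in neural progenitors, had 2, 0 and 1 peaks overlapping its 3′UTR (chr2:26457903-26459530, minus strand). They covered 11.7%, 0% and 39.9% (17.2% ± 20.5, SD, n = 3). The coverage in replicate 3 came from a single peak of 1421 nt (chr2:26458881-26460301) that ran across the stop codon and had its midpoint in the coding sequence. No base of this 3′UTR was covered in 2 libraries. The opposite strand had 1, 0 and 1 peaks, the same as or 1 below the gene's own strand, and 2 transcripts annotated there, 0610009E02Rik and Gm13568, overlap the 3′UTR.

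Notch3 had 0, 1 and 1 3′UTR peaks (chr17:32120820-32121819, minus strand), covering 0%, 8.5% and 9.3%. The peaks of replicates 2 and 3 met in 26 nt (chr17:32121464-32121489), but their central parts did not overlap. The peaks behave as if padded by 30 nt on each side, so that a shared stretch can lie in padding alone. This stretch is printed because it is the whole of the signal that 2 libraries shared on Notch3, with an ATTTA pentamer counted among its letters and no listed seed match: ttgtatagagacaaattcatttaaac. An antisense transcript, Gm17276, overlaps the 3′UTR, and its strand held 1 peak in replicate 1.

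Among the ligands, Jag1 had the highest mean number of 3′UTR peaks, but it differed from that of Jag2 by less than the SD of Jag1 over libraries, and no ligand had a 3′UTR peak in replicate 1. Jag1, an activating ligand, had 0, 11 and 14 3′UTR peaks in replicates 1, 2 and 3 (chr2:137081456-137083023, minus strand; 8.33 ± 7.37, SD, n = 3). They covered 0%, 50.8% and 70.9% (40.6% ± 36.6, SD, n = 3). The missing peaks of replicate 1 kept Jag1 out of the genes with common regions, although replicates 2 and 3 shared 5 regions with 541 nt in total. The opposite strand held 1, 0 and 2 peaks.

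The 5 Jag1 regions were rich in A and T, from 65.7% to 87.8%, against 63% for the whole 3′UTR. None held a listed seed match. One (chr2:137082426-137082512) held a Pumilio element, TGTAAATA, the binding motif of the Pumilio repressor proteins, which no central part of a peak held whole. The last (chr2:137081456-137081504, 49 nt) ended at the annotated end of the 3′UTR and held the polyadenylation signal AATAAA, 43 nt before that end and likewise in no central part. In the coding sequence of Jag1 there were 2, 5 and 14 peaks, and none on the opposite strand.

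Jag2, the other Jagged ligand, had 0, 2 and 8 3′UTR peaks (chr12:112907819-112908888, minus strand), which covered 0%, 16.1% and 49.3% (21.8% ± 25.2, SD, n = 3). Replicates 2 and 3 shared 1 region of 90 nt (chr12:112907931-112908020), which held a match to miR-200b-3p, miR-200c-3p and miR-429-3p, in the central part of a replicate 3 peak only. No opposite-strand peak touched this 3′UTR.

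Dll1, the Delta ligand that activates receptors in neural progenitors, had no same-strand peak anywhere in the gene in any library. Its 3′UTR is at chr17:15367354-15368029 on the minus strand, and 3 peaks lay on the opposite strand of the gene. Dll3, a divergent ligand that does not activate Notch in trans, had 3 peaks in introns. At its 3′UTR (chr7:28293553-28293920, minus strand) a single peak of replicate 3 overlapped the last 10 nt, with its midpoint past the gene end. Hes1, a transcriptional repressor and target gene, had 1 peak, in an intron in replicate 3, and none on its 3′UTR (chr16:30067429-30067796, plus strand).

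Of the adaptors, Numb was the only gene beside Notch2 with common regions, and it varied least between libraries relative to its mean among the genes with 3′UTR peaks. Its 3′UTR (chr12:83794034-83795438, minus strand) held 2, 4 and 5 peaks (3.67 ± 1.53, SD, n = 3), and none on the opposite strand. They covered 12.5%, 17.8% and 28.3% (19.5% ± 8.04, SD, n = 3). All 3 libraries had peaks at the same interior place, a common region of 83 nt (chr12:83794824-83794906) starting 533 nt into the 3′UTR. It was 83.1% A and T and held no listed seed match.

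This Numb region held an AATAAA hexamer, printed below in capitals, which lay 857 nt before the annotated 3′UTR end. It lay outside the central parts of the replicate 1 and 3 peaks, and the 12 nt common to trimmed peaks (chr12:83794854-83794865) did not hold it. Of all common regions 10.9% held this hexamer. The other common region, 20 nt long and 13 nt from the end of the 3′UTR, is printed whole, since a region this short can be shown entire. The replicate 2 peak under it had its midpoint past the end of the gene, and the central parts of the peaks did not all meet there.
Numb, AATAAA, chr12:83794883-83794904, minus strand: agttacagAATAAAtattataa
Numb, last common region, chr12:83794047-83794066, minus strand: ttgcccatgaagggctgttc

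Numbl, the paralogue of Numb, had 0, 3 and 4 3′UTR peaks (chr7:27281410-27282141, plus strand), covering 0%, 37.8% and 41.4% (26.4% ± 22.9, SD, n = 3). Replicates 2 and 3 shared 65 nt near the stop codon (chr7:27281455-27281519) and 88 nt (chr7:27282044-27282131) that ended 10 nt before the 3′UTR end and held the AATAAA signal, in the central part of the replicate 3 peak only. The first was 35.4% and the second 70.5% A and T. Among the peaks of the whole gene, 8 lay where the transcript Gm44641 overlaps on the same strand. As in Jag1, Jag2 and Notch3, the 3′UTR had no peak in replicate 1.

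**Figure D3:**
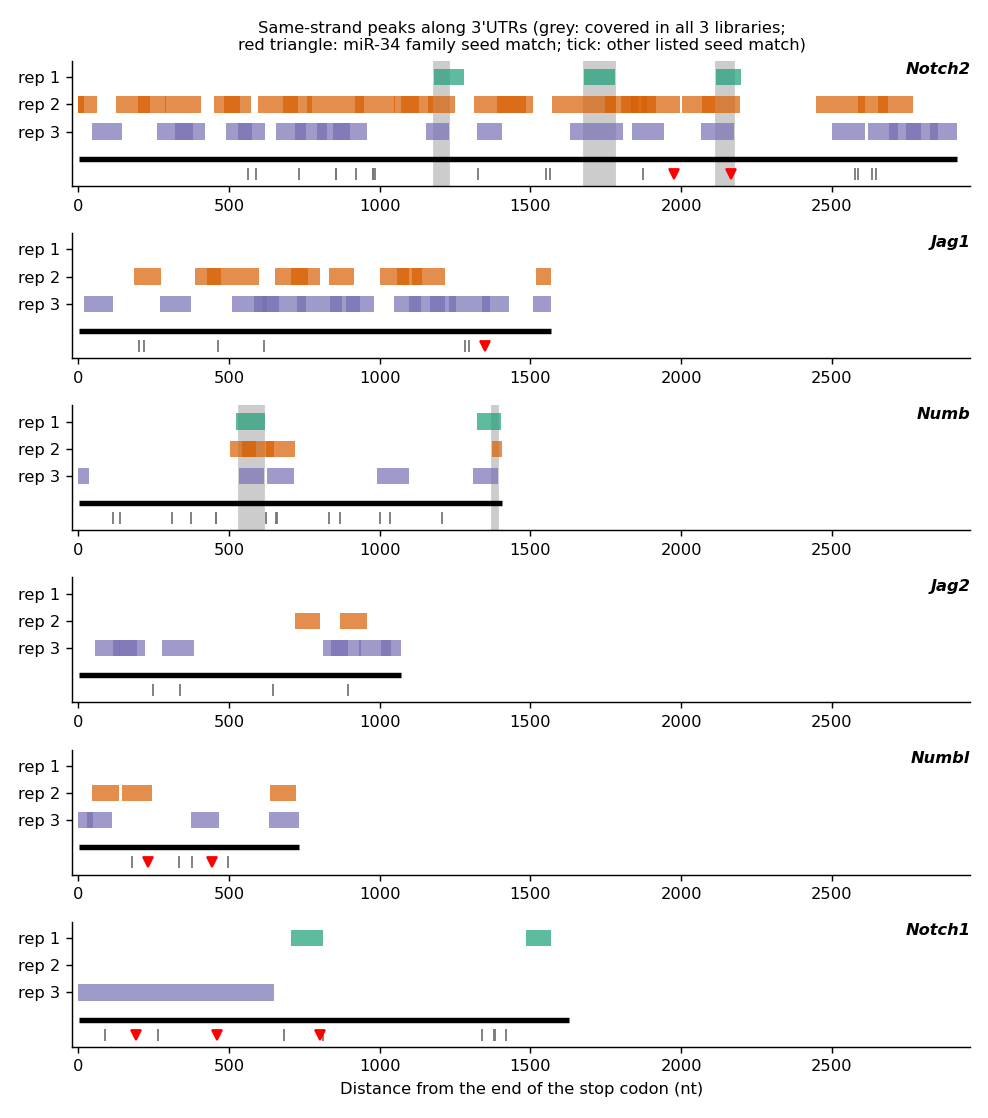
Same-strand peaks along the 3′UTRs of Notch2, Jag1, Numb, Jag2, Numbl and Notch1, with 1 row of bars per library and distance from the stop codon in nt on the horizontal axis. Grey bands are the 5 common regions, ticks are listed seed matches and red triangles are miR-34 family matches. Replicate 1 has peaks on Notch2, Numb and Notch1 only, and 1 triangle, in Notch2, falls in a grey band.

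Of 66 miRNAs listed for the search, 59 had a sequence in the RefSeq set used, with 46 different seed matches. The 3′UTRs of the 10 genes held 71 of these matches. Peaks of all 3 libraries covered 1 of the 71, beside 1.95% of all matches in all 3′UTRs, and peaks of at least 2 libraries covered 15, beside 11.3%. Those 15 were unevenly spread, with 12 in Notch2, 2 in Numb and 1 in Jag2. Of the remaining matches, 24 lay under peaks of 1 library and 32 under none. One of the 5 common regions of the 10 genes held a listed match, beside 25.5% of all common regions.

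**Figure D4:**
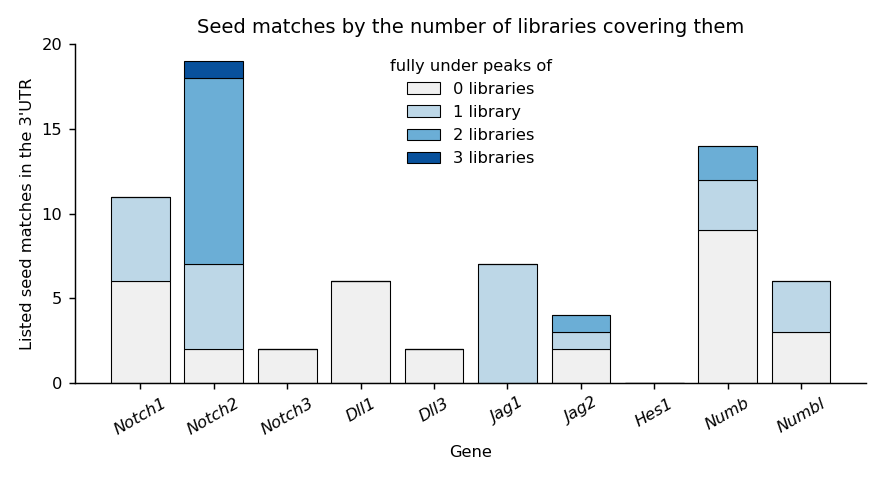
Number of listed seed matches in the 3′UTR of each gene (vertical axis, stacked), shaded by how many libraries covered the whole match. Notch2 holds 19 matches, of which 12 were covered in 2 or more libraries, and the 7 in Jag1 were each covered in 1 library.

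The miR-34 family match was present in 5 of the 10 genes, with 3 copies in Notch1, 2 each in Notch2, Dll1 and Numbl, and 1 in Jag1. In all 3′UTRs the share of genes with CACTGCC was 14.3%, and it rose with length from 6.25% in class 2 through 11.1% and 19.4% to 32.8% in class 5. Of the 10 copies, 3 were followed by A, which makes an 8mer site, 1 each in Notch2, Dll1 and Numbl. Peaks of 1 library covered 7 copies, and the 2 in Dll1 were uncovered. The remaining copy, at chr3:98149605-98149611 in Notch2, was covered in all 3 libraries. Among the 3656 copies in all 3′UTRs, 29 (0.793%) were covered in all libraries and 6.76% in 2 or 3. The match occurred in 0.37% of all common regions.

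Around this Notch2 site the 3 libraries were offset. The replicate 1 peak (chr3:98149559-98149642, 84 nt) was the only one whose central part held the whole match. The central part of the replicate 2 peak (chr3:98149513-98149640) held all of the match but its last 1 nt, and that of the replicate 3 peak (chr3:98149512-98149619) ended before it. After 30 nt were trimmed from both ends of every peak, no common region was left at this site. The hairpin of miR-34a had peaks in all 3 libraries, that of miR-34b in replicate 3 only, and that of miR-449a in none. Whether peaks on a hairpin, here or below, reflect miRNA loaded in Ago2 was not tested.

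The other matches that peaks of 2 libraries covered were in every case under replicates 2 and 3. Of the 15 matches covered in at least 2 libraries, the central parts of peaks held 5 whole in 2 libraries, 7 in 1 and 3 in none. The 5 were those of miR-9-5p, miR-27a-3p, miR-101a-3p and miR-142a-5p in Notch2 and of miR-182-5p in Numb, and the 3 those of miR-200a-3p with miR-141-3p, miR-206-3p and miR-103-3p with miR-107-3p in Notch2. In Notch2 the miR-21a-5p match (chr3:98148362-98148368, nt 918) was an 8mer, held by the central part of a replicate 3 peak only, and the same stretch of 301 nt also held matches to miR-18a-5p, miR-27a-3p and miR-101a-3p, the last 2 overlapping each other. The miR-9-5p match (chr3:98150017-98150023) lay 5 nt before one for miR-200a-3p and miR-141-3p. Nearer the end of the 3′UTR were matches to miR-181a-5p, an 8mer, and miR-132-3p, and further upstream matches to miR-206-3p, miR-103-3p with miR-107-3p, and miR-142a-5p. Hairpins of miR-21a, miR-18a, miR-132 and miR-142a had peaks in all 3 libraries, and those of miR-141 and miR-107 in replicates 2 and 3. Peaks of only 1 library lay on the hairpins of miR-200a and miR-101a (replicate 1), miR-206 (replicate 2) and miR-103 (replicate 3, both copies). Of the 3 miR-9 hairpins only Mir9-3 had a peak, in replicate 1, of the miR-181a hairpins Mir181a-2 had peaks in replicates 2 and 3 and Mir181a-1 in replicate 2, and that of miR-27a had none.

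In Numb, overlapping 8mer matches to miR-182-5p (chr12:83794777-83794783) and miR-31-5p (chr12:83794779-83794785) lay in a region of 92 nt that replicates 2 and 3 shared, 3′ of the common region with the AATAAA hexamer. The region also held a Pumilio element, TGTACATA, which no central part held whole. The miR-182-5p match is in capitals below, and the miR-31-5p match starts 2 nt before it. Hairpins of both miRNAs had peaks in all 3 libraries. The site of the Jag2 region, for miR-200b-3p and its relatives, follows.
Numb, miR-182-5p, chr12:83794769-83794791, minus strand: aagtaatcTTGCCAAaagtgagc
Jag2, miR-200b-3p, chr12:112907984-112908006, minus strand: gacggcggCAGTATTgaagcttg

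Short motifs were searched on the transcript strand in the same 3′UTRs. In flies, the GY box, Brd box and K box mark 3′UTRs of Notch targets. The GY box, GTCTTCC (also the miR-7a-5p match), was in the 3′UTRs of Notch3 and Numbl, under no peak, and in 11.9% of all 3′UTRs. The Brd box, AGCTTTA (also the miR-9-3p match), was in none of the 10 3′UTRs, beside 11.3% of all. The K box, TGTGAT, which shares TGTGA with the miR-27a-3p match ACTGTGA, was in 4 of the 10 (Notch2, Jag2, Hes1 and Numbl), beside 34.9% of all.

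Notch2 held 4 K boxes, of which 2 were in common regions of untrimmed peaks and the other 2 under peaks of replicates 2 and 3. Of all common regions 3.32% held a K box. The Pumilio element TGTANATA (N is any base) was in 8 of the 10 3′UTRs, beside 23.2% of all, not split by length. Those in Jag1 and Numb were covered in replicates 2 and 3, the pair in Jag2 in replicate 3, and those in Notch1, Notch3, Dll1, Dll3 and Hes1 in no library. No common region of the 10 genes held one, against 4.01% of all common regions. The pentamer ATTTA and the hexamer AATAAA were each in 8 of the 10 3′UTRs, beside 65.2% and 80.1% of all.

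Over the whole genes there were 541 same-strand peaks, 95, 146 and 300 in replicates 1, 2 and 3, and 140 on the opposite strand. By midpoint, 102 of the 541 lay in 3′UTRs, 94 in coding sequence, 1 in a 5′UTR (Numb, replicate 3), 329 in introns and 15 in non-coding exons. Per kb the 3′UTRs held the most, 0.597, 3.92 and 4.18 peaks in replicates 1, 2 and 3 (mean 2.90). The opposite-strand mean was 0.227. By library the 3′UTRs held 7, 46 and 49 same-strand and 6, 0 and 2 opposite-strand peaks, so the strands were nearly even in replicate 1. Coding sequence held 0.289, 0.842 and 1.34 per kb (mean 0.824), against 0.0614. In introns the density was 0.183, 0.158 and 0.472 (mean 0.271), against 0.0989 on the opposite strand.

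Replicate 1 had 7 of the 102 3′UTR peaks and 11 of the 94 in coding sequence, below both other libraries. In introns it had 74 peaks, against 64 in replicate 2 and 191 in replicate 3. Its peaks were also the narrowest and covered the 3′UTRs of fewer genes across the whole series, and the part of this in the missing Jag1, Jag2, Notch3 and Numbl peaks was not tested. Intronic peaks were most frequent in Notch2, with 158, and Numb, with 110, of which replicate 1 had 26, replicate 2 had 14 and replicate 3 had 70.

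**Figure D5:**
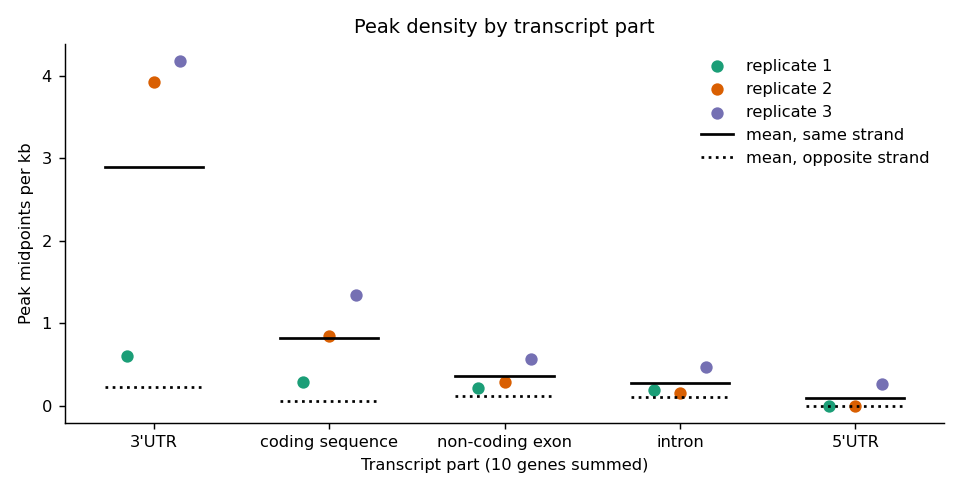
Peak midpoints per kb in each transcript part (horizontal axis), summed over the 10 genes, with 1 point per library. Solid bars are the same-strand mean of 3 libraries and dotted bars the opposite-strand mean, and the 3′UTR mean of 2.90 is the highest.

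Width separated the strands. Of same-strand peaks, 190 were at most 85 nt wide, 324 were 86 to 200 nt, 11 were over 200 and up to 1000 nt and 16 were longer. On the opposite strand, 112 were at most 85 nt wide and 19 were 86 to 200 nt, so the ratio of the strands was far more even among the narrow peaks. In 3′UTRs, 80 of the 102 same-strand peaks were 86 to 200 nt wide. With peaks of this width only, the common regions of the 10 genes fell to 1, of 35 nt, inside the second Notch2 region (chr3:98149191-98149225).

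Other genes of the pathway were taken from a list of 61, all with an annotated 3′UTR. Every library had a 3′UTR peak in 28 of the 61, beside 23.9% of all genes, and 7 had no 3′UTR peak in any library. A common region was present in 18, beside 14.3%. By 3′UTR length, 18 of the 61 genes were in class 5 and 14 in class 4. On the opposite strand 4 of the 61 had peaks in every library, beside 2.63%. By role, the ligands and receptors had peaks in all libraries in 1 of 5, as did 9 of 15 genes of glycosylation and cleavage, 10 of 16 of endocytosis and ubiquitination, 8 of 18 of the nuclear complex and 0 of 7 target genes. The target genes (Hes5, Hes6, Hes7, Hey1, Hey2, Heyl and Nrarp) each had 3′UTR peaks in 1 or 2 libraries.

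Mib1, the ubiquitin ligase that lets ligands be endocytosed, had the most common regions of the list, 18, with 63.5% of its 3′UTR covered. In the same group Aak1, a kinase of endocytosis, had 4 regions in a 3′UTR of 15925 nt, with 16.4% covered. Nedd4, a ubiquitin ligase, had 3 regions in 2624 nt, with 39.3% covered. Adam10, the protease that makes the first cut in ligand-bound Notch, had 6 regions with 61.8% covered, Aph1b, a subunit of the γ-secretase that makes the next cut, had 4, and Furin, which processes the receptor precursor, had 1. In the nuclear complex, the coactivator Maml1 had 5 regions, the corepressor Tle4 had 3 and the acetyltransferase Crebbp had 2. Among the ligands and receptors only Dlk1, a non-canonical ligand, had a region, 1, with 17.5% covered. Beside Mib1 and Adam10, the covered shares of Tle4 (55.5%) and Epn1 (53.4%), an endocytic adaptor, were above the 47.9% of Notch2.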

How the data were processed

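The authors deposited 1 table of peaks, called per library, giving each peak's coordinates, strand, score and library. Per the labels the processing used FastQC, cutadapt, STAR and mm10. The peak caller and its threshold are not given in the sources used here. The deposited score, between 54.6 and 60 and tied for nearly all peaks, was not used. Starts reached -30 and mitochondrial stops 16329 on a length of 16299, so starts were read from 0 and peaks taken as padded by 30 nt per side. The 1021 peaks off the 21 primary nuclear chromosomes were left out. The table had 0 further columns of values per sample.

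The 3′UTR was the longest of any protein-coding transcript, without the stop codon. A peak counted from 1 nt of overlap, and transcript part followed the midpoint. Matches to miRNA bases 2 to 8 were searched on the transcript strand. The listed miRNAs missing from the RefSeq set used (miR-34c-5p, miR-199b-5p, miR-124-3p, miR-23b-3p, miR-1a-3p, miR-122-5p and miR-145a-5p) were not searched by name. Where such a miRNA shares its seed with a searched miRNA, its matches are those given for the searched miRNA. Members and lists were chosen with earlier results of these data known. All 10 genes were named, with up to 3 other pathway genes per role by number of common regions (ties by symbol). The miRNAs to be named were those matched in a common region. Those covered in 2 libraries were added after their values were seen. Alternatives were each library left out, 2 libraries sufficing, peaks of 86 to 200 nt, trimmed peaks, an overlap of 40 nt, merged 3′UTRs, regions of 30 nt and other site types. Scripts used Python 3.11.15, numpy 2.4.6, pandas 2.3.3 and pysam 0.24.0 and were tested on simulated peaks.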

Additional observations from a re-analysis of the deposited data

How the results depend on the processing

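The counts depended on replicate 1. Leaving out 1 library at a time gave 2 to 6 of the 10 genes with 3′UTR peaks in every remaining library (2 with all 3), 2 to 6 genes with a common region (2), 5 to 25 regions (5), 1 to 9 regions with a listed seed match (1) and 5485 to 7701 of all genes (5016), the highest value each time without replicate 1. When 2 of the 3 libraries sufficed, these were 7, 6, 25, 9 and 8863. With peaks of 86 to 200 nt only, 1 gene had a common region, with 1 region and 0 seed matches. With trimmed peaks 2 regions were left, in Notch2 and Numb, and 0 held a seed match. The remaining 34 of 49 alternatives stayed within 1.5 times the main count, among them all for the 28 other pathway genes (26 to 42). With 1 library left out, the mean number of 3′UTR peaks per library ran from 11 to 23 in Notch2, 5.5 to 12.5 in Jag1, 1 to 5 in Jag2 (1 without replicate 3), 3 to 4.5 in Numb, 1.5 to 3.5 in Numbl, 0.5 to 1.5 in Notch1 (0.5 without replicate 1), 0.5 to 1 in Notch3 and 0 to 0.5 in Dll3. The cause of these shifts was not tested. No paired analysis was possible because the labels give only 1 group, so no groups share replicate numbers. Depth is not known from the peak table, so an absent peak does not show absent binding.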
